A study of Mus musculus with 6 samples.

Results

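Lsd1 occupancy at the genes of the Id family and of 6 Smads was described in C2C12 cells, a mouse myoblast line that forms muscle or fat-like cells depending on its medium. The 10 genes were Id1, Id2, Id3, Id4, Smad1, Smad2, Smad3, Smad5, Smad6 and Smad7, of 26180 genes with a curated RefSeq transcript on the mm10 assembly. A peak belonged to a gene when its centre lay within the gene's span or 10 kb either side of it. This rule took 58 of 43426 peaks of the myogenic library, 35 of 18893 of the adipogenic library and 56 of 33533 of the LSD1(OE) library, and these merged into 64 of 56729 sites when peaks of different lists that overlapped by at least 1 bp were joined.

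The study compared Lsd1 binding on day 1 of differentiation in 3 conditions, to ask which genes Lsd1 occupies when myoblasts are turned to muscle or to brown fat. Wild-type cells were given myogenic medium with 2% horse serum or adipogenic medium, which held FCS (10%) together with insulin (850 nM), dexamethasone (5 µM), isobutylmethylxanthine (0.5 mM), indomethacin (125 nM), rosiglitazone (1 µM) and T3 (1 nM). The third condition was the LSD1(OE) line in the same adipogenic medium. This line carries a Flag-tagged LSD1 transgene from a lentivirus, was selected with G418 and received doxycycline before and during differentiation, so the transgene, the selected line and doxycycline cannot be told apart. None of the sources used here lists doxycycline for wild-type cells. Each condition had 1 ChIP library and 1 input library, with no replicates, so every interval below covers counting error only and every comparison is between libraries, not conditions. The files hold no expression values, so the identity of the cells was not checked against marker genes.

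Id proteins are helix-loop-helix factors that lack a DNA-binding region. They pair with E proteins, the partners of Myod1 and the other myogenic factors, and so keep these from binding E-boxes, and Id genes are classic targets of BMP signalling. Smads carry the signal of the BMP and TGF-beta receptors to the nucleus. Smad1 and Smad5 are phosphorylated by BMP receptors, Smad2 and Smad3 by TGF-beta and activin receptors, and Smad6 and Smad7 are inhibitory Smads that are themselves induced by these pathways. Both pathways restrain muscle differentiation, and BMP signalling also acts in brown fat. Lsd1 is a histone demethylase that works with CoREST and other complexes. The paper's introduction ties its action on H3K4 to repression of genes and that on H3K9 to activation.

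Lsd1 peaks lay at all 10 genes in the myogenic and LSD1(OE) libraries and at 9 of 10 in the adipogenic library, where Smad2 had none. Within the gene spans alone, without the flanks, 9, 5 and 4 of the 10 had a peak centre in the myogenic, adipogenic and LSD1(OE) libraries. With the flanks, 62.5% of all genes had a peak in the myogenic library, 41.2% in the adipogenic library and 53.9% in the LSD1(OE) library. The share of all genes was not computed for the spans alone. A promoter peak, centred within 2000 bp of a transcription start site (TSS) and counted for the gene of the nearest TSS, was called at 10 of 10, 7 of 10 and 10 of 10 genes, against 40.5%, 23.2% and 32.3% of all genes. In all 3 libraries it was called at 7 of the 10, against 19.0% of all genes. The 3 genes short of an adipogenic promoter peak were Smad2, Id3 and Smad7, and for Id3 and Smad7 the reason was the assignment. At Id3 a peak covered the TSS but its centre was nearer to the TSS of Gm42329, and at Smad7 a peak centred 716 bp upstream was nearer to that of Gm20544. Counted for every gene with a TSS in the window, 9 of 10 genes had an adipogenic promoter peak. A called peak covered a TSS of its gene at 10, 8 and 10 genes. With the summit of a peak, its position of most tags, in place of the centre, 10, 8 and 7 genes had a promoter peak. Within 1000 bp of a TSS 10, 7 and 8 had one, and at an FDR of at most 0.1% 9, 5 and 8. Shares of all genes were not computed for these counts, for a covered TSS or for every gene with a TSS in the window.

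**Figure D1:**
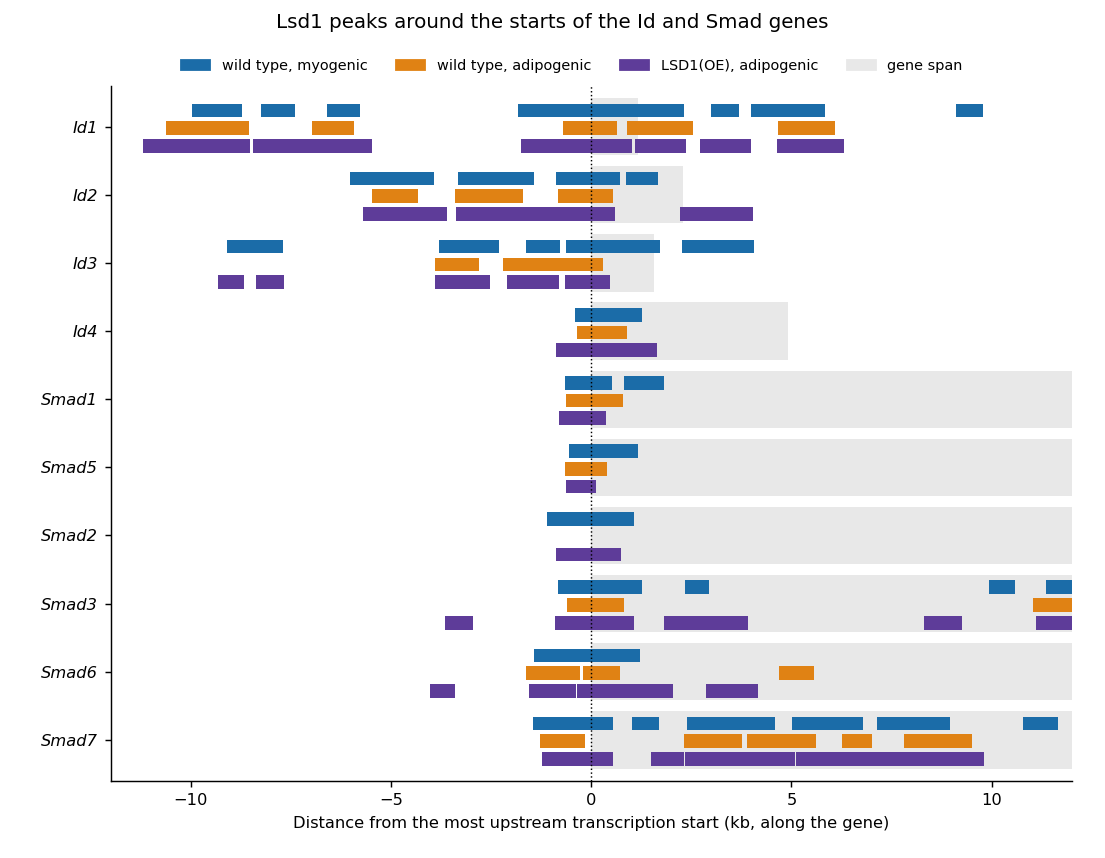
Called Lsd1 peaks (coloured bars) around each gene, by distance in kb from its most upstream transcription start, for the wild-type myogenic, wild-type adipogenic and LSD1(OE) adipogenic libraries, with the gene span in grey. Peaks beyond 12 kb are not drawn. Every gene had a peak over its start in the myogenic and LSD1(OE) libraries, Id1, Id2, Id3 and Smad7 had several peaks nearby, and Smad2 had no adipogenic peak.

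Tag density, the filtered ChIP tags in a peak per kb of its called length per 1000000 filtered ChIP tags of the library, was used to compare peaks, because the scale of the fold enrichment that MACS gives differed between the 3 libraries. The libraries held 46155625 (myogenic), 63915769 (adipogenic) and 55193310 (LSD1(OE)) filtered ChIP tags, and an even spread over the effective genome would give a density of 0.535. The called peaks held at least 27, 35 and 30 tags. Peaks held 7.12%, 3.20% and 5.28% of the tags. The adipogenic library thus had the fewest peaks and the smallest share of tags in them, although it was the deepest. Tag density is not corrected for the input. The deposited fold enrichment of the adipogenic library was above the myogenic one at some peaks, as upstream of Id2 (6.88 against 4.27). It was below at others, as at the peak over the Id3 TSS (4.47 against 5.88). At regions without a peak the tags are not given, so no peak means only that the score, 10 times −log10 of the p-value, did not reach 50. MACS computed the score after scaling the ChIP tags up to the input, by 1.90, 1.28 and 1.82. A score of 50 was thus not an equal bar in the 3 libraries. With scores divided by these factors, 25222, 15834 and 19939 of all peaks still reached 50. At the 10 genes 42 myogenic, 34 adipogenic and 45 LSD1(OE) peaks did.

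Id1 lies at chr2:152736251-152737410 on the plus strand. Its 21.2 kb window held 7 myogenic, 5 adipogenic and 6 LSD1(OE) peaks, and 4.92%, 2.77% and 4.54% of all genes had at least as many. The called peaks added up to 48.5%, 35.7% and 59.8% of the window's length, and 14.6, 9.75 and 19.5 tags per 1000000 lay in them. The peak over the TSS had a density of 1.71 (95% Poisson interval 1.53 to 1.90, 325 tags) in the myogenic library, 1.25 (1.03 to 1.52, 108 tags) in the adipogenic library and 1.68 (1.48 to 1.90, 258 tags) in the LSD1(OE) library. The adipogenic interval lay below the myogenic one and overlapped that of the LSD1(OE) library at its edge.

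Away from its promoter Id1 had 3 sites called in all 3 libraries. The one centred 5150 bp downstream of the TSS, between genes, did not follow the promoter. Its density was 1.40 (1.16 to 1.68), 1.69 (1.43 to 1.98) and 1.93 (1.66 to 2.24) in the myogenic, adipogenic and LSD1(OE) libraries, so it was lowest in the myogenic library, where its adipogenic over myogenic ratio was 1.21 (0.94 to 1.55) and its LSD1(OE) over myogenic ratio was 1.38 (1.09 to 1.75). The site centred 6957 bp upstream had densities of 1.05, 1.08 and 1.48, with an LSD1(OE) over adipogenic ratio of 1.36 (1.05 to 1.79). The site 9848 bp upstream had 1.41, 1.19 and 1.37, and none of its ratios had an interval off 1. A site 3359 bp downstream was called in the myogenic and LSD1(OE) libraries, and one 9446 bp downstream in the myogenic library.

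Id2 lies at chr12:25093799-25096092 on the minus strand. It had 4 myogenic, 3 adipogenic and 3 LSD1(OE) peaks, and the leading one was not at the TSS. In each library a summit, the position of most tags in a peak, lay about the same distance upstream, at 2660 bp in the myogenic, 2672 bp in the adipogenic and 2673 bp in the LSD1(OE) library. In the wild-type libraries this upstream peak and the TSS peak were called apart, with upstream densities of 1.61 (1.35 to 1.90, 141 tags) and 1.56 (1.33 to 1.81, 170 tags) and TSS densities of 1.53 (1.26 to 1.84, 113 tags) and 1.46 (1.22 to 1.74, 127 tags). In the LSD1(OE) library 1 peak of 3963 bp covered both, with 454 tags, a density of 2.08 (1.89 to 2.28) and a score of 2241, the highest score of any peak at the 10 genes. Over the joined site the LSD1(OE) density was 1.37 times the adipogenic (1.18 to 1.59) and 1.32 times the myogenic (1.13 to 1.54), while the adipogenic over myogenic ratio was 0.96 (0.81 to 1.14). A further upstream site, 4799 bp from the TSS, had densities of 1.30, 1.19 and 1.45, with all 3 intervals overlapping.

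Id3 lies at chr4:136143822-136145392 on the plus strand, and had 5 myogenic, 2 adipogenic and 5 LSD1(OE) peaks. Its promoter peak was the densest of the 10 in the myogenic library, at 2.19 (1.92 to 2.48, 237 tags). The adipogenic peak over the TSS had 1.28 (1.11 to 1.47, 205 tags) and the LSD1(OE) peak 1.51 (1.22 to 1.85, 94 tags), and both intervals lay below the myogenic one and overlapped each other. Id3 also had a second upstream peak in all 3 libraries, within an intron of Gm42329. Its summits lay 3350 bp (myogenic), 3365 bp (adipogenic) and 3342 bp (LSD1(OE)) upstream of the Id3 TSS, and its densities were 1.51 (1.23 to 1.82), 1.23 (0.99 to 1.52) and 1.80 (1.51 to 2.13). Here the LSD1(OE) library was 1.46 times the adipogenic (1.11 to 1.93). The LSD1(OE) over myogenic ratio of this site was 1.19 (0.92 to 1.56), an interval that included 1, while at the joined promoter site it was 0.71 (0.59 to 0.87). A site 8483 bp upstream lacked an adipogenic peak, and one 3162 bp downstream was called in the myogenic library alone.

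The upstream summits of Id2 and Id3 held the same arrangement of letters, so their sequence is shown for 300 bases around the LSD1(OE) summit, read from mm10 on the plus strand. Capitals mark GGCGCC, the core of the BMP response element known from Id genes, CAGAC or its complement GTCTG, the Smad box, and CAGCTG, an E-box form read by Myod1 and E proteins.
Id2 upstream summit, chr12:25098615-25098914: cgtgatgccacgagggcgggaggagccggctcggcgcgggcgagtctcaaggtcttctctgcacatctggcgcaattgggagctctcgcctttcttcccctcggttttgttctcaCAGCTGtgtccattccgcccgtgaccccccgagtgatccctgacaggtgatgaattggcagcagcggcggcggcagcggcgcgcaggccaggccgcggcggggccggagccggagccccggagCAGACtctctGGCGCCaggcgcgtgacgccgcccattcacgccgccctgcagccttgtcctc
Id3 upstream summit, chr4:136140330-136140629: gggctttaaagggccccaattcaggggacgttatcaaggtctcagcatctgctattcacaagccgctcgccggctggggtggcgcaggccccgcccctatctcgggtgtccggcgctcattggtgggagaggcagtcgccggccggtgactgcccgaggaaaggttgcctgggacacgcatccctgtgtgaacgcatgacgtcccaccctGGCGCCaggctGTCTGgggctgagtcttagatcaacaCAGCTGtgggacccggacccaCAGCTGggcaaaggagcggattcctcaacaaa
In both windows GGCGCC was followed, on 1 of the strands, by GTCTG after 5 bases, and both also held CAGCTG. The windows around the myogenic and adipogenic summits of the same peaks held the arrangement too. It was found in 0.0213% of 42342 myogenic, 0.0379% of 18489 adipogenic and 0.0184% of 32606 LSD1(OE) summit windows of this length, and was searched for after these sequences had been seen. These shares include the Id2 and Id3 windows themselves, 2 in each library. The wider form, GGCGCC followed after 5 bases by GNC, was in 1.61%, 1.98% and 1.62% of all summit windows. A match describes the letters only.

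Id4 lies at chr13:48261116-48266028 on the plus strand and had 1 peak in each library, over its TSS. Its densities were 1.56 (1.29 to 1.86, 121 tags), 0.965 (0.762 to 1.21, 77 tags) and 1.26 (1.08 to 1.46, 176 tags) in the myogenic, adipogenic and LSD1(OE) libraries. The adipogenic value was the lowest of the 9 adipogenic promoters, with only 2.64% of all adipogenic promoter peaks at or below it, and its interval lay below the myogenic one. The summit stood 41 bp downstream of the TSS in the myogenic library, 662 bp in the adipogenic and 1105 bp in the LSD1(OE) library. An antisense transcript, A330033J07Rik, has an exon at the last of these, and ChIP tags carry no strand.

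The BMP receptor Smads had few peaks. Smad1, at chr8:79338395-79399428 on the minus strand, had 3 myogenic, 2 adipogenic and 1 LSD1(OE) peak. At its promoter the density was 2.06 (1.69 to 2.48, 112 tags) in the myogenic, 1.62 (1.37 to 1.90, 149 tags) in the adipogenic and 1.28 (1.02 to 1.59, 82 tags) in the LSD1(OE) library. Here the LSD1(OE) library was lowest, at 0.62 times the myogenic (0.46 to 0.83) and 0.79 times the adipogenic (0.60 to 1.04), and Smad1 was the densest of the 9 adipogenic promoters. An intronic site 48642 bp downstream of the TSS was called in both wild-type libraries, at 1.47 (1.23 to 1.74) and 1.41 (1.16 to 1.69), and not in the LSD1(OE) library. It was the only one of the 64 sites called in the 2 wild-type libraries alone.

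Smad5, at chr13:56703010-56742378 on the plus strand, had a single peak in each library, at its cluster of 3 TSSs. Its density was 1.60 (1.34 to 1.90, 128 tags), 1.09 (0.854 to 1.37, 73 tags) and 1.05 (0.76 to 1.40, 44 tags) in the myogenic, adipogenic and LSD1(OE) libraries. The adipogenic library was 0.68 times the myogenic (0.50 to 0.91) and the LSD1(OE) library 0.96 times the adipogenic (0.64 to 1.41).

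The 2 TGF-beta receptor Smads stood at opposite ends. Smad2, at chr18:76241701-76311747 on the plus strand, had 1 myogenic and 1 LSD1(OE) peak, both over its first TSSs, and no adipogenic peak in a window of 90.0 kb. The nearest adipogenic peak lay 76895 bp outside the gene. Its density was 1.65 (1.41 to 1.92, 165 tags) in the myogenic and 1.06 (0.860 to 1.30, 94 tags) in the LSD1(OE) library, a ratio of 0.64 (0.49 to 0.84).

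Smad3, at chr9:63646767-63757994 on the minus strand, held 31 of the 64 sites. Its 23 myogenic, 12 adipogenic and 27 LSD1(OE) peaks were reached by 0.187%, 0.267% and 0.0688% of all genes, and per kb of window by 3.10%, 4.35% and 1.02%. The called length was 28767, 17234 and 38056 bp and held 1892, 1347 and 3021 tags, or 41.0, 21.1 and 54.7 tags per 1000000. Of the 31 sites 11 were called in all 3 libraries, 5 in the myogenic and LSD1(OE) libraries, 6 in the myogenic library alone and 9 in the LSD1(OE) library alone, and none without either of these. Apart from the promoter peaks, 1 upstream peak and 1 summit in a coding exon, the summits lay in introns. The stretch between 58814 and 76560 bp from the TSS had no peak centre in any library.

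**Figure D2:**
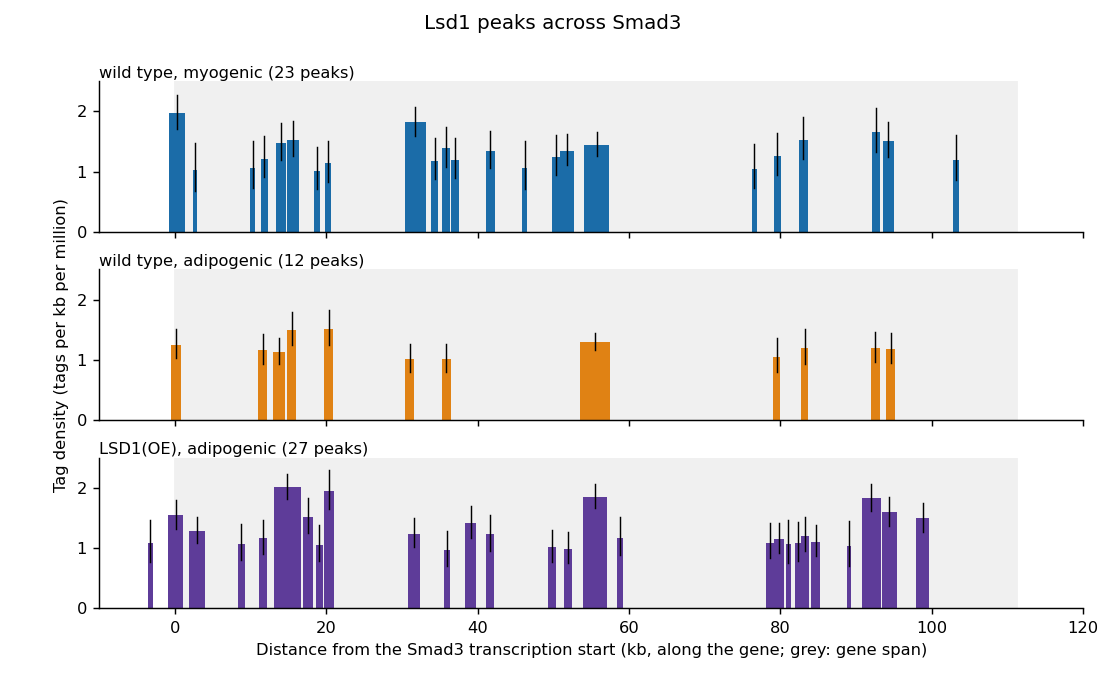
Tag density (tags per kb per 1000000 tags) of each Lsd1 peak across Smad3, by distance in kb from its transcription start, in the 3 libraries. Bar width is the called length, black lines are 95% Poisson intervals and grey is the gene span. The 27 LSD1(OE) peaks include tall intronic ones centred 14833, 20368, 55513 and 92035 bp from the start, while the tallest of the 23 myogenic peaks are at the start and at 31754 bp.

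The promoter of Smad3 had a density of 1.97 (1.70 to 2.27, 190 tags), 1.25 (1.03 to 1.51, 113 tags) and 1.55 (1.32 to 1.80, 168 tags) in the myogenic, adipogenic and LSD1(OE) libraries. The myogenic value was highest, and the adipogenic over myogenic ratio of the site was 0.64 (0.50 to 0.81). Within introns the order varied from site to site. The site 14777 bp from the TSS held the highest-scoring Smad3 peak, an LSD1(OE) peak of 399 tags with a score of 1895, and its densities were 1.51, 1.30 and 2.02. Its LSD1(OE) density was 1.56 times the adipogenic (1.32 to 1.84) and 1.34 times the myogenic (1.13 to 1.59). The site 20368 bp from the TSS had 1.13, 1.51 and 1.95, and was lowest in the myogenic library, with an LSD1(OE) over myogenic ratio of 1.72 (1.23 to 2.45). The site 31741 bp from the TSS had the opposite order, with 1.82, 1.01 and 1.23, an adipogenic over myogenic ratio of 0.55 (0.42 to 0.72) and an LSD1(OE) over myogenic ratio of 0.68 (0.53 to 0.85). So intronic sites of 1 gene lay on both sides of 1 in the same pair of libraries.

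The window at the strongest Smad3 summit is shown because its letters differ from those of the upstream Id summits. It is 300 bases of mm10 on the plus strand, within an intron, and holds none of the 3 motifs set in capitals above.
Smad3 intronic summit, chr9:63744019-63744318: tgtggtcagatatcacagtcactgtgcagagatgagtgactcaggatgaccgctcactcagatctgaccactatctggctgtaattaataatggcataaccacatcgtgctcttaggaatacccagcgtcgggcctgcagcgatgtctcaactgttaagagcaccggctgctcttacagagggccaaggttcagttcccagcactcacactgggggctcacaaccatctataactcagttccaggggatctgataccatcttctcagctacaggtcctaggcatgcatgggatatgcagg
Its G and C content was 51.0%, against 69.3% at the Id2 and 63.0% at the Id3 upstream summit, and the observed over expected ratio of CpG was 0.308, 0.916 and 0.639.

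The inhibitory Smads differed in peak number. Smad6, at chr9:63953076-64022059 on the minus strand, had 2 myogenic, 3 adipogenic and 4 LSD1(OE) peaks, most of them within 5 kb of its TSS. Its strongest promoter peak had a density of 1.70 (1.48 to 1.95, 207 tags), 1.27 (1.04 to 1.53, 110 tags) and 1.53 (1.32 to 1.75, 201 tags). Over the joined promoter site the adipogenic library was 0.75 times the myogenic (0.61 to 0.91). An intronic peak 5131 bp from the TSS, with 60 tags and a score of 74.5, was the only one of the 64 sites called in the adipogenic library alone.

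Smad7, at chr18:75367365-75395934 on the plus strand, had 11 myogenic, 6 adipogenic and 7 LSD1(OE) peaks, and 1.64%, 1.73% and 3.32% of all genes had at least as many. The site at its promoter, which also covers the start of Gm20544, had densities of 1.58, 1.33 and 1.21, and its LSD1(OE) over myogenic ratio was 0.77 (0.60 to 0.98). Within the gene, downstream of that site, 1 joined site held 4 myogenic, 4 adipogenic and 3 LSD1(OE) peaks. This site had 1.38, 1.13 and 1.42, and the adipogenic library was below both others, with an LSD1(OE) over adipogenic ratio of 1.25 (1.10 to 1.42). Beyond the gene's end, 38307 bp from the TSS, a site called in all libraries had 1.71 (1.43 to 2.03), 1.03 (0.838 to 1.26) and 1.26 (1.02 to 1.54), with the myogenic value highest.

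The order of the promoters changed between libraries. In the myogenic library the densest promoter peak was that of Id3 (2.19), followed by Smad1 (2.06), Smad3 (1.97), Smad7 (1.84), Id1 (1.71), Smad6 (1.70), Smad2 (1.65), Smad5 (1.60), Id4 (1.56) and Id2 (1.53). The Smad7 value is that of a peak just upstream, within an intron of Gm20544, and the weak myogenic peak over the Smad7 TSS itself had 1.05 (0.711 to 1.48, 31 tags), below all the others. Each overlapped its neighbour in this order, and the interval of Id3 lay above those of Id1, Smad5, Id4 and Id2 only. In the LSD1(OE) library Id2 (2.08) came first, followed by Id1 (1.68), Smad3 (1.55), Smad6 (1.53), Id3 (1.51), Smad1 (1.28), Id4 (1.26), Smad7 (1.21), Smad2 (1.06) and Smad5 (1.05). The interval of Id2 lay above all of these except that of Id1. In the adipogenic library Smad1 (1.62) and Id2 (1.46) came first and Smad5 (1.09) and Id4 (0.965) last, and the ranked peaks of Id1, Smad6 and Smad7 lay beside the TSS rather than over it. Id2 was thus last in the myogenic and first in the LSD1(OE) library, where its peak took in the upstream summit.

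**Figure D3:**
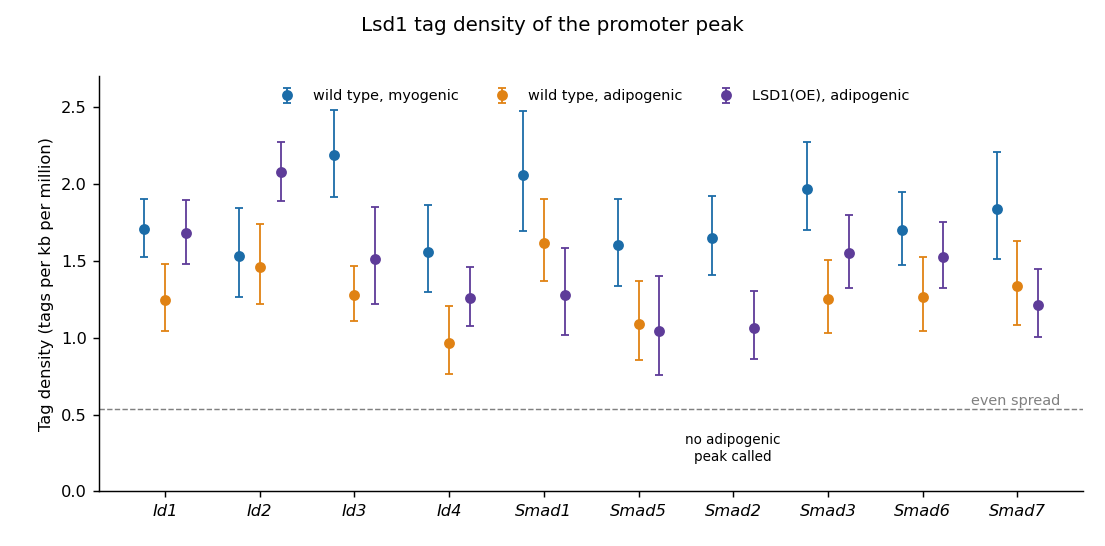
Tag density (tags per kb per 1000000 tags) of the highest-scoring Lsd1 peak centred within 2000 bp of a start of each gene, with 95% Poisson intervals, in the 3 libraries. The dashed line is the density of an even spread, 0.535. Myogenic values lie between 1.53 and 2.19, adipogenic values between 0.965 and 1.62, and Id2 in the LSD1(OE) library stands at 2.08, where its peak also covers the upstream summit.

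Most peaks of the 10 genes were away from promoters. Centres lay further than 2000 bp from an own TSS for 43 of 58 myogenic, 24 of 35 adipogenic and 42 of 56 LSD1(OE) peaks, and of these 30, 18 and 31 were in introns and 11, 6 and 11 between genes. All 3 libraries shared 26 of the 64 sites (40.6%), against 20.6% of all sites, and without Smad3 15 of 33 (45.5%). The myogenic and LSD1(OE) libraries alone shared 9 sites, the myogenic library alone held 14, the LSD1(OE) library alone 13, and no site was shared by the adipogenic and LSD1(OE) libraries without the myogenic. Of 50 sites with a myogenic peak 23 (46%) had no adipogenic peak, against 65.9% of all myogenic sites, and of 48 with an LSD1(OE) peak 22 (45.8%) had none, against 58.9%. At the 10 genes median scores were 214 against 122 for all peaks (myogenic), 145 against 112 (adipogenic) and 216 against 116 (LSD1(OE)). Whether these shares differ at equal scores was not tested.

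With the 18893 highest-scoring peaks of each library, the windows held 33 myogenic, 35 adipogenic and 44 LSD1(OE) peaks. The adipogenic number was thus no longer below the myogenic one when the lists were made equally long, but it stayed below that of the LSD1(OE) library.

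At sites with a peak in both wild-type libraries, tag density was lower in adipogenic medium at 24 of 27 sites, with a median ratio of 0.82 (log2 −0.29). All 14149 such sites had a median log2 ratio of −0.32, and 88.2% of them were lower, so the sites of the 10 genes lay close to the shift of the whole library. The 95% interval of the ratio lay below 1 at 10 of 27 sites, against 39.5% of all sites, and above 1 at none. Of the 10, 3 were at Smad3, 2 at Smad7 and 1 each at Id1, Id3, Id4, Smad5 and Smad6, and no site at Id2 or Smad1 was among them. The log2 ratio ranged from −0.85 at Smad3, 31741 bp from its TSS, to 0.41 at Smad3, 20368 bp from its TSS.

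Between the LSD1(OE) and wild-type libraries in adipogenic medium, density was higher with LSD1(OE) at 20 of 26 sites, with a median log2 ratio of 0.29, against 0.13 over all 13053 shared sites, of which 70.6% were higher. The interval lay above 1 at 10 of 26 sites, against 16.3% of all sites, and below 1 at none. By gene, 2 were at Id1, 1 each at Id2, Id3 and Smad7, and 5 at Smad3, which are not independent as they share a gene and a pair of libraries. The Id genes had all 9 of their sites higher, with a median log2 ratio of 0.35, and the Smads 11 of 17, with 0.29. The promoter sites of Smad1 (−0.34), Smad5 (−0.06) and Smad7 (−0.14) and 3 sites of Smad3 were lower, each with an interval that included 1. Without Smad3, 12 of 15 sites were higher and 5 had an interval above 1. More tags give a narrower interval, and the peaks of these genes scored higher than all peaks. The shares with an interval off 1 were not matched for tag number.

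Set against the myogenic library, LSD1(OE) density fell on both sides. The interval lay above 1 at 6 of 35 shared sites, against 2.01% of all 18581, and below 1 at 8, against 21.9%. The 6 were 2 sites at Id1, 1 at Id2 and 3 at Smad3, and none of them was a promoter site apart from that of Id2, which reaches the upstream summit. The 8 were the promoter sites of Id3, Smad1, Smad2, Smad5, Smad3 and Smad7, another Smad3 site and the site beyond the end of Smad7. The median log2 ratio was −0.10. Dividing by the length of the joined site in place of the called length turned it to 0.17, and moved that of LSD1(OE) over adipogenic from 0.29 to 0.79 and that of adipogenic over myogenic from −0.29 to −0.62. All 3 comparisons share libraries, so their ratios are not independent. Here too the shares with an interval off 1 were not matched for tag number.

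**Figure D4:**
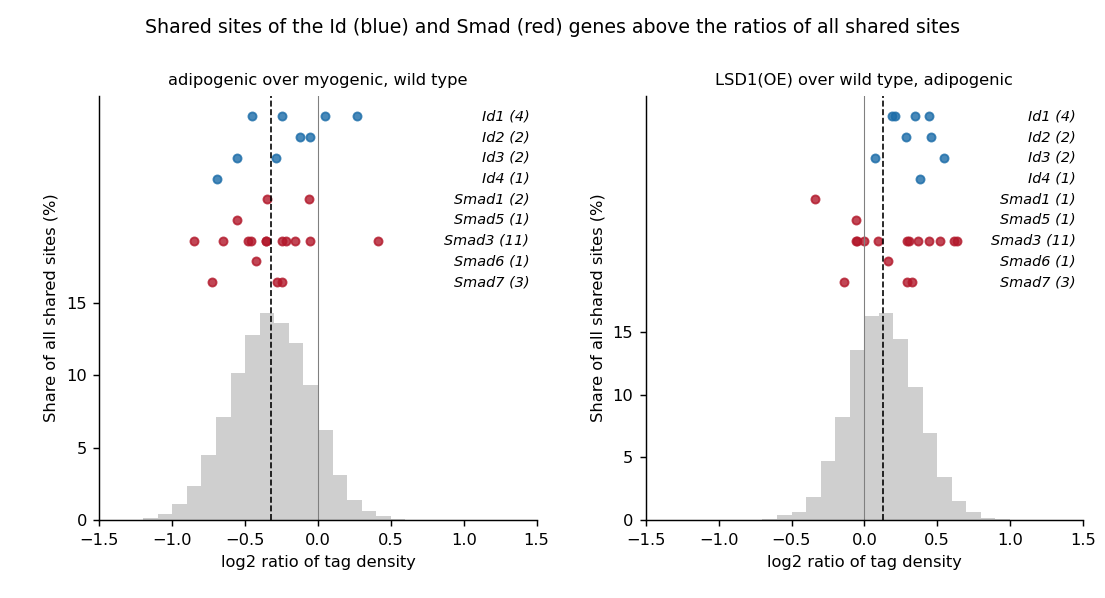
The log2 ratio of tag density at each shared site of the Id genes (blue points) and Smad genes (red points), 1 row per gene with its number of sites, above the share (%) of all shared sites at each ratio (grey bars). The dashed line is the median of all shared sites, −0.32 on the left and 0.13 on the right, and the grey line is a ratio of 1. All 9 Id points on the right lie above the grey line, and the Smad1 point is the lowest.

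Promoter sequences, from 250 bases before to 50 after the TSS in GRCm38.p6, were analysed for 7 of the 10 genes (Id2, Id3, Id4, Smad1, Smad5, Smad3 and Smad6). Their median G and C content was 65.0% and the median observed over expected ratio of CpG 0.952, against 52.7% and 0.384 over 32841 promoters. GGCGCC, searched on both strands as all motifs here, was in 3 of the 7 (Id2, Id4 and the first Smad5 TSS), against 11.9% of all promoters, and followed after 5 bases by GNC in 2 of 7 (Id2 and Smad5), against 2.55%. These motifs are themselves G and C rich, as are the promoters. CAGAC was in 1 of 7 (Id3), against 49.6%, CANNTG in 3 of 7, against 72.3%, and CAGCTG, a form of CANNTG, in 1 of 7 (Id2), against 16.3%. The 250 bases upstream of the start are shown for Id2, the densest promoter in the LSD1(OE) library, for Id3, the densest in the myogenic library, and for Smad1, the promoter that was lowest in the LSD1(OE) library relative to the myogenic, each on its own strand and with capitals as before.
Id2 promoter, minus strand, chr12:25096093-25096342: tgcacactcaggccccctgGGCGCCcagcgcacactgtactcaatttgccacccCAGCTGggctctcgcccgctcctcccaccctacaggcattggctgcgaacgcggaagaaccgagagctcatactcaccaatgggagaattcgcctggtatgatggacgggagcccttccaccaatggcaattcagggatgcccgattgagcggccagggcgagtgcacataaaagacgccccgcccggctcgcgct
Id3 promoter, plus strand, chr4:136143572-136143821: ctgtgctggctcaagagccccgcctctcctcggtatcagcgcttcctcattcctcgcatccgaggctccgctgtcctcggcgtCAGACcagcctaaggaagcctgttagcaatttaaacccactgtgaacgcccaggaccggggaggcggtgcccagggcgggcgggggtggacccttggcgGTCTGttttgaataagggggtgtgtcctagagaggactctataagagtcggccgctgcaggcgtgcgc
Smad1 promoter, minus strand, chr8:79399429-79399678: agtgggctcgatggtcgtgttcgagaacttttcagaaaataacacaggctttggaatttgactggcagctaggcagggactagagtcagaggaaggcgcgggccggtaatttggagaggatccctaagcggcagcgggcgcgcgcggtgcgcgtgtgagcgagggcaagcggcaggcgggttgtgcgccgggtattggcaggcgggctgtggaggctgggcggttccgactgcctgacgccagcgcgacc
The Id2 promoter held GGCGCC and CAGCTG, that of Id3 held CAGAC on each strand, and that of Smad1 held none of the 3.

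At summits further than 2000 bp from an own TSS, CAGCTG was in 14 of 29 myogenic, 10 of 16 adipogenic and 13 of 34 LSD1(OE) windows of 300 bases (48.3%, 62.5% and 38.2%), against 25.8%, 29.2% and 25.9% of all summits in the same library. CANNTG was in 26 of 29, 16 of 16 and 31 of 34, against 79.7%, 80.5% and 80.8%. CAGAC was in 17, 10 and 17 of them, or 58.6%, 62.5% and 50%, near the 55.0%, 54.8% and 54.9% of all summits. All summits include those at promoters, so these sets are not alike. With promoter summits of the genes included, CAGCTG was in 15 of 39, 13 of 24 and 14 of 42 windows (38.5%, 54.2% and 33.3%). CANNTG was then in 82.1%, 87.5% and 85.7%, and CAGAC in 56.4%, 50% and 47.6%. Summits of the same site in different libraries overlap and Smad3 gives most of them, so these are not independent windows. The windows of Id1, Smad2 and Smad7 were not analysed here.

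Among 57 other genes of the BMP and TGF-beta pathways, 45 had a promoter peak in the myogenic library, 31 in the adipogenic library and 41 in the LSD1(OE) library, and 30 had one in all 3. Over all genes the shares were 40.5%, 23.2% and 32.3%, and 19.0% in all 3, against 78.9%, 54.4% and 71.9% of the 57 in each library. The receptors, which bind the ligands and phosphorylate the Smads, had 10, 7 and 10 of 12, with Acvr1, a type I BMP receptor, at densities of 1.46, 1.13 and 1.19, and Bmpr2, the type II BMP receptor, at 1.81 in the myogenic and 1.37 in the LSD1(OE) library and no adipogenic peak. Ligands had 8, 4 and 7 of 13. Inhbb, the activin beta B chain, had 1.29, 1.30 and 2.59, the highest density among the named genes in the LSD1(OE) library, and Inhba, the beta A chain, had 1.76, 1.34 and 1.55. Bmp2 and Mstn, which encodes myostatin, had no peak in any library.

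Extracellular antagonists and decoy receptors had 7, 3 and 4 of 8. The BMP antagonist gene Nog had densities of 1.89, 1.59 and 1.73 and the activin antagonist gene Fst 1.52, 1.16 and 1.52. Of the 2 other Smads, Smad9, a further BMP receptor Smad, had a promoter peak of 1.34 in the myogenic and 1.01 in the LSD1(OE) library, and Smad4, the common partner Smad, had none. Cofactors, corepressors and ubiquitin ligases of Smads had 10, 7 and 9 of 10, with the corepressor genes Tgif1 at 2.25, 1.20 and 1.53 and Skil at 1.63, 1.27 and 1.58. The 3 E protein genes, the partners of the Id proteins, all had a promoter peak in all libraries, with Tcf3 at 1.86, 1.19 and 1.34 and Tcf12 at 1.64, 0.985 and 0.992. Response genes had 6, 7 and 7 of 9. Among them Atoh8, a BMP response gene, had 1.93, 1.78 and 1.67, and Msx2 had no peak.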

How the data were processed

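The authors sequenced 50 bp single reads and mapped them to the mm10 assembly. Peaks were called by the authors with MACS 1.4.2 (per the file headers), with the input of the same condition as control and a p-value limit of 1e-05. The deposited tag count of a peak is the authors' count of ChIP tags in it, after MACS had kept at most 2 ChIP and 3 input tags per position. The deposited score, equal to −10 log10 of the p-value, was computed by the authors after MACS had scaled the smaller ChIP library up to its input, by 1.90, 1.28 and 1.82 in the myogenic, adipogenic and LSD1(OE) libraries. The deposited fold enrichment is the authors' ratio over local background and was not used for densities, ratios or rankings. The deposited FDR is in percent, and every peak had an FDR under 1%. The paper's methods give a shorter adipogenic induction than the sample labels.

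From these, tag densities were computed with exact Poisson 95% intervals, and density ratios of joined sites with exact conditional binomial 95% intervals (SciPy 1.17.1, NumPy 2.4.6, pandas 2.3.3, matplotlib 3.10.9, Python 3.11.15). Gene spans and 31647 TSSs came from curated RefSeq transcripts of GRCm38.p6, the same assembly as mm10. Without replicates no test was run between conditions, and median ratios are read against those of all shared sites. The steps were tested on simulated peaks. Peak calls, windows, overlap and lengths were varied, as given in the closing section.

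The text names all 10 members, and in each pathway group the 2 genes with the highest-scoring promoter peak and up to 3 without a peak. Some genes that this rule gives are not reported here. The members and lists were chosen with earlier results of these data known.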

Additional observations from a re-analysis of the deposited data

How the results depend on the processing

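Of 150 recomputed values, 135 stayed within 1.5 times the reported count or, for a median ratio, within a counting error. That error was of the ratio of tags summed over the shared sites of the 10 genes, not of the median. In log2 it was 0.064 for adipogenic over myogenic, 0.061 for LSD1(OE) over adipogenic and 0.056 for LSD1(OE) over myogenic. Within these limits myogenic peaks still fell from 58 to 39 at an FDR of at most 0.1% or a score of at least 100, and the distance of the adipogenic over myogenic median from all sites, 0.032, changed sign to −0.022 with that score and to −0.0077 with an overlap of 50%. Also within these limits, the genes with an LSD1(OE) promoter peak fell from 10 to 7 by the summit. Restricting the window to the gene span lowered the member genes with a peak to 5 in the adipogenic and 4 in the LSD1(OE) library, and the peaks to 21 and 34. Equal peak numbers left 33 myogenic peaks, and an FDR of at most 0.1% left 17 sites that all 3 libraries share. For adipogenic over myogenic density, the median log2 ratio was −0.36 with equal peak numbers and −0.36 with the span alone, where it lay −0.036 from that of all sites. Tags divided by the length of the joined site rather than the called length gave −0.62, or −0.12 from all sites, for adipogenic over myogenic, 0.79, or 0.55 from all sites, for LSD1(OE) over adipogenic, and 0.17, or 0.45 from all sites, for LSD1(OE) over myogenic, which reversed the sign of the last. This measure counts the bases of a site that a library did not call as free of tags, so it also moves with the called length. No paired analysis was possible because each condition has 1 ChIP library and no test was run. With no replicates, differences between cultures cannot be told from differences between conditions. A site without a peak can still hold as many tags as a weak peak, and no upper limit is known, because tag number alone does not set the score.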
